A study of Drosophila melanogaster with 3 samples.

Results

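The homeotic (Hox) genes of Drosophila melanogaster are 8 transcription factor genes that lie on chromosome arm 3R in the Antennapedia complex (lab, pb, Dfd, Scr and Antp) and the bithorax complex (Ubx, abd-A and Abd-B). They are described here in a map of CG12155 binding made by chromatin immunoprecipitation and sequencing (ChIP-seq). The members were the 8 named genes, of 13945 protein-coding genes in the annotation. They were chosen by name and not by any measured value, though with earlier results of these data known. For each, peak summits were counted within 500 bp of its transcription start sites (TSSs), in its introns, and in the intervals that separate it from its neighbours in the complex.

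The study has 1 group of 3 biological replicates. All of them are whole embryos of mixed sex, collected over 0 to 24 h of development, from a transgenic line that carries CG12155 fused at its C terminus to eGFP, a green fluorescent protein. An antibody against GFP was used for the immunoprecipitation. Such embryos mix all segments, tissues and stages, so a region bound in a few cells and one bound weakly in many cannot be told apart. The labels do not say whether the untagged protein was also present. No control was used here, so how much enrichment would appear without the tagged protein is not known. Peak lists hold no expression values, so the embryos could not be checked against tissue markers, and the depth of each library is unknown.

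Hox proteins carry a homeodomain that binds DNA, and each gives a stretch of the body axis its identity, in an order along the axis that matches the order of the genes on the chromosome. Segmentation proteins of the early embryo set where each gene is active. Polycomb and trithorax group proteins then keep that state, through response elements and chromatin boundary elements that lie in introns and in the long intervals of these complexes, often many kilobases from the promoter they serve. Loss or misplaced activity of a Hox gene turns one segment into the likeness of another.

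In the dm6 annotation the Antennapedia complex, from the first base of lab to the last base of Antp, is 338 kb long and the bithorax complex, from Ubx to Abd-B, is 316 kb long. The minus strand carries lab (FBgn0002522, chr3R:6661427-6678590), pb (FBgn0051481, chr3R:6707800-6742063), Scr (FBgn0003339, chr3R:6823120-6849981) and Antp (FBgn0260642, chr3R:6896253-6999228), and the plus strand carries Dfd (FBgn0000439, chr3R:6791836-6802428). All members of the bithorax complex lie on the minus strand: Ubx (FBgn0003944, chr3R:16656623-16734426), abd-A (FBgn0000014, chr3R:16807214-16830049) and Abd-B (FBgn0000015, chr3R:16927212-16972236).

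Regions were ranked by the peak caller's signal within each list, with rank 1 the strongest. The optimal list, the set that passed the consortium's test of reproducibility, held 5202 peaks on the dm6 genome. The pooled relaxed list held 30000 regions, weak ones included, and the optimal peaks were its 5202 strongest. Each replicate had a relaxed list of its own (30000, 29643 and 30000 regions in replicates 1, 2 and 3). A replicate's rank for a pooled peak is that of the strongest region overlapping it by at least 1 bp, and a region without such an overlap is called unlisted in that replicate. Neighbouring pooled regions can overlap the same replicate region and then share its rank.

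The Antennapedia and the bithorax complex held 10 optimal peaks each. None of the 20 was at a homeotic promoter: 9 were in introns and 11 were between neighbouring genes. The bases from 50 bp before to 50 bp after 8 of these summits, and on the strongest region at any homeotic promoter, are shown because the results turn on them: the strongest peak of each complex, 4 other peaks that hold motif matches, the peak at the bcd promoter, and 1 intron peak of Abd-B. They were read on the plus strand from RefSeq's Release 6 genome, which has the coordinates of dm6. Capitals mark matches to a motif that was searched: GAGAG for GAGA factor, GCCAT for Pho and AGNTGGCG for CTCF, each on both strands.
Between Ubx and abd-A, rank 723, chr3R:16798830-16798930: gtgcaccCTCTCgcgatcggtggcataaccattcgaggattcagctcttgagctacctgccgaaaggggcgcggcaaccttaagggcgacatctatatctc
Between Ubx and abd-A in lncRNA:bxd, rank 3818, chr3R:16748677-16748777: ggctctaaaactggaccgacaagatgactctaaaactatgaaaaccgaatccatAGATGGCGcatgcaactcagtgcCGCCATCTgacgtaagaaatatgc
Between abd-A and Abd-B in lncRNA:iab4, rank 2635, chr3R:16850766-16850866: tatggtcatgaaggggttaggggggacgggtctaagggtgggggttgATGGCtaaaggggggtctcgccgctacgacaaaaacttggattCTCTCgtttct
Between abd-A and Abd-B in lncRNA:iab8, rank 4319, chr3R:16919209-16919309: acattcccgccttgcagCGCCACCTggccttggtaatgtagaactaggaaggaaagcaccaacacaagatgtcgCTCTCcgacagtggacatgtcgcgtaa
Antp intron, rank 1060, chr3R:6912506-6912606: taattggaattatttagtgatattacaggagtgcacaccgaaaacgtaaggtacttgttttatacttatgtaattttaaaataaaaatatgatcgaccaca
Antp intron, rank 3422, chr3R:6914509-6914609: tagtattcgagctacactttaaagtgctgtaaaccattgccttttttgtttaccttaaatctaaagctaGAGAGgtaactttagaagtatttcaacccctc
Between pb and Dfd at bcd, rank 2403, chr3R:6759625-6759725: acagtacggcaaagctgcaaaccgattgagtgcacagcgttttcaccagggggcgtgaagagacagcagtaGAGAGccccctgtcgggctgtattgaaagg
Abd-B intron, rank 2354, chr3R:16958192-16958292: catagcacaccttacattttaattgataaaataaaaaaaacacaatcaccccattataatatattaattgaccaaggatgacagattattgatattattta
Dfd promoter, relaxed list, rank 5254, chr3R:6791434-6791534: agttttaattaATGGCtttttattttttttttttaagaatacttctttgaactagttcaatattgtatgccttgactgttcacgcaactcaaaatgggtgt

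Over all chromosome arms, 56.4% of optimal summits were at protein-coding promoters. No homeotic gene had an optimal summit within 500 bp of any of its TSSs, 19 in all. Over all protein-coding genes, 26.2% had one, and over the 1977 genes of 10 kb or longer, the size class of all 8 members (10.6 to 103 kb), 33.8% had one. With 0 of 8 genes, 3 counts would be 37.5%, and the upper 95% Wilson bound is 32.4%, both for counting error only. Both limits are approximate and treat the 8 genes as independent, though these lie together in their complexes. Neither is a test. The share over all protein-coding genes, 26.2%, is below both limits, while that over genes of 10 kb or longer, 33.8%, is below the first and above the Wilson bound. The count was also 0 with promoter windows of 200 and 1000 bp and when the whole peak interval was used in place of its summit.

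In the pooled relaxed list, all 8 genes had a summit at a promoter, 13 summits in all. The shares over all protein-coding genes and over genes of 10 kb or longer were 54.2% and 73.7%. The replicates did not all list these weak regions, and no share over all regions of the relaxed list was computed for comparison. When the region also had to be listed in both other replicates, the count was 3 of 8 genes without replicate 1, 5 of 8 without replicate 2 and 4 of 8 without replicate 3. The 13 promoter summits had a median pooled rank of 13313, and 7 of them were listed in all 3 replicates. Those 7 were 2 at Dfd, 4 at Antp and 1 at Ubx. Neighbouring summits at Dfd and at Antp start sites overlapped the same regions in the replicates, so the 7 are not 7 separate sites.

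The Dfd promoter was the strongest. Dfd, which specifies the mandibular and maxillary segments of the head, had a relaxed summit 352 bp upstream of its only TSS (chr3R:6791269-6791698) that ranked 4309, 6791 and 9184 in replicates 1, 2 and 3. Its pooled rank was 5254, just outside the optimal set, which ends at rank 5202, and it shared the highest value of the q-value column with all optimal peaks. It was the only homeotic promoter among the 5202 strongest regions of any single replicate, and replicate 1 alone held it there.

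Antp, which specifies the thorax and is known for turning antennae into legs when misexpressed, had the next strongest. Its start site at position 6932840 had a summit 114 bp upstream, ranked 7814, 13790 and 8019 in replicates 1, 2 and 3 and 9931 in the pool. Another pooled summit, farther upstream with rank 26239, overlapped the same replicate regions. The summits of replicates 2 and 3 lay 152 and 134 bp from the stronger summit and closer to the weaker one. Ranks 13790 and 8019 thus belong rather to the weaker one. Its most distal start site, at 6999228, had a summit 20 bp downstream, ranked 13306, 18120 and 7440 in the replicates and 11610 in the pool. A second pooled summit, 238 bp upstream of that start with rank 11673, overlapped the same replicate regions. The replicate 1 summit lay 11 bp from this second one and 269 bp from the first, so rank 13306 belongs rather to the second. The regions at both start sites were listed in every replicate but lay well below the optimal set. The start site between these 2, at 6958370, had no relaxed summit.

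The promoter of pb, the gene for the labial and maxillary palps, had a summit 167 bp downstream of its TSS with pooled rank 9933. That region ranked 18609 in replicate 1 and 5910 in replicate 3 and was unlisted in replicate 2. The best Abd-B region, pooled rank 12098, lay 451 bp downstream of the start site at 16934242 and ranked 11264 and 19906 in replicates 1 and 2, with none in replicate 3. Abd-B specifies the posterior abdomen, and 4 of its 6 start sites had no pooled relaxed summit.

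The promoter of abd-A, which acts in the abdominal segments in front of those of Abd-B, had a region of pooled rank 14217, at ranks 15826 and 17818 in replicates 1 and 3 and unlisted in replicate 2. The single TSS of Ubx, which gives the third thoracic segment its halteres in place of wings, had a region of pooled rank 22306, listed in all replicates at 25859, 16946 and 22140. The summits of replicates 1 and 3 lay 303 bp from the pooled one, toward the TSS, so the replicates did not all mark the same position. The weakest promoters were those of lab, which acts in the head and the midgut, and Scr, which specifies the labial and first thoracic segments. The lab region (pooled rank 22462) was listed in replicate 1 alone, at rank 13954, and the Scr region (pooled rank 25109) likewise in replicate 1 alone, at rank 16082. Both lay at an internal start site, and the most upstream start sites of lab (6678590) and Scr (6849981) had no relaxed summit. The pooled summits at pb, Ubx, abd-A and Abd-B lay within annotated 5′ untranslated exon sequence.

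**Figure D1:**
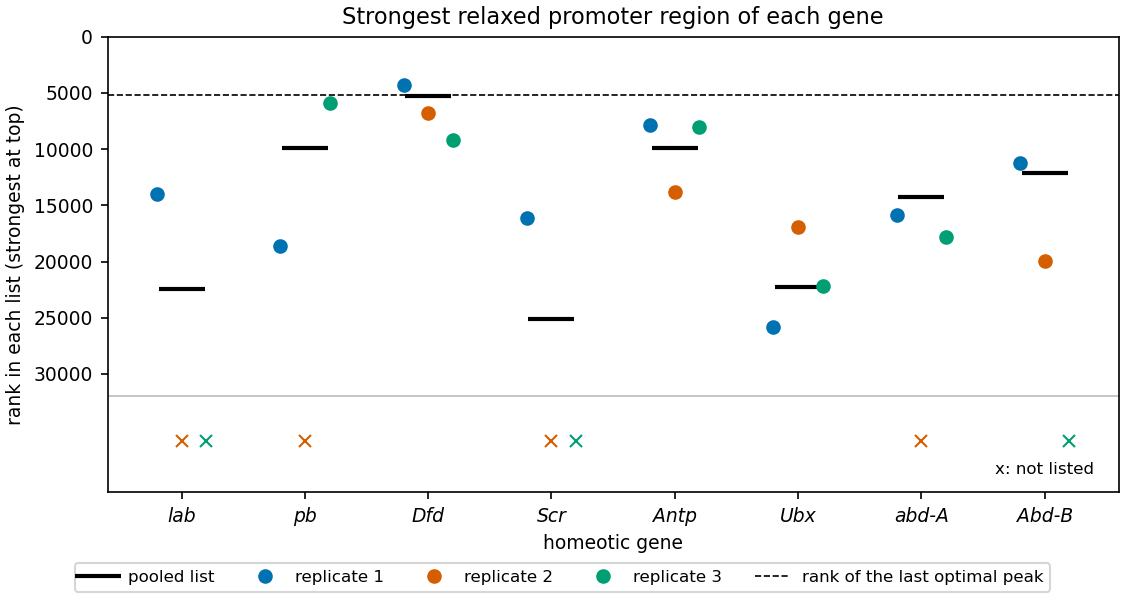
Rank of the strongest relaxed region within 500 bp of a TSS of each homeotic gene, in the pooled list (black bars) and in each replicate (points; crosses mark replicates with no overlapping region), with the strongest at the top. Dfd sits at 5254, just below the dashed line at rank 5202 where the optimal set ends, and the replicate points of single genes spread widely.

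Introns held 9 optimal summits, in 3 of 8 genes: 6 in Antp, 2 in Abd-B and 1 in Ubx. Among protein-coding genes of 10 kb or longer, 34.9% had an optimal summit in an intron, so the share of members was close to that of long genes. Antp is also the longest member (103 kb), and its introns held 6.39 optimal summits per 100 kb, against 6.45 in Abd-B and 1.36 in Ubx. The introns of lab, pb, Dfd, Scr and abd-A held none.

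In the relaxed list the introns held 66 summits, and 7 of 8 genes had at least 1, against 82.3% of genes of 10 kb or longer. Dfd, the shortest member with 7.85 kb of introns, had none. Of the 66, 25 were listed in all 3 replicates and 2 in none, with no share over all relaxed regions computed. The count was 29 without replicate 1, 33 without replicate 2 and 33 without replicate 3, when the region had to be listed in both other replicates.

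The 6 optimal intron peaks of Antp fell within 32.9 kb of each other, in the part of the gene shared with the overlapping annotated gene CG46458. The strongest (chr3R:6912488-6912625) ranked 1014, 1054 and 1335 in replicates 1, 2 and 3 and 1060 in the pool, and lay 20.3 kb downstream of the start site at 6932840. A neighbouring peak (chr3R:6912748-6912865) lay 0.205 kb from it by summit, with pooled rank 3122 and rank 3605 in replicate 1. In replicates 2 and 3 the strongest region overlapping this peak was that of the first one, so its ranks there, 1054 and 1335, belong to its neighbour. These 2 peaks were 138 and 118 bp wide, while 17 of the 20 in the complexes had the commonest width of the optimal list, 430 bp.

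The other 4 Antp peaks ranked between 2880 and 3674 in the pool. One, at chr3R:6903225-6903654, ranked 2491, 3580 and 2748 in the replicates and 2880 in the pool. Another, at chr3R:6920002-6920431, ranked 3261, 4256 and 4176, and 3674 in the pool. All 3 replicates placed both of these peaks among their own 5202 strongest regions. The peak at chr3R:6936077-6936506, 3.45 kb upstream of the start site at 6932840, ranked 2990, 5181 and 3292 and 3587 in the pool, so replicate 2 placed it near the end of that range. The peak at chr3R:6914344-6914773 ranked 3652, 6963 and 2442, with 3422 in the pool, and replicate 2 left it outside. No optimal summit lay in the 62.9 kb of Antp from the uppermost of these peaks to its most distal start site.

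Abd-B held 2 peaks of similar strength. One of them, at chr3R:16958027-16958456, ranked 2237, 2178 and 2735 in replicates 1, 2 and 3 and 2354 in the pool. Its partner, at chr3R:16969841-16970270, ranked 2272, 2121 and 3235 and 2371 in the pool. The first lay 2.04 kb downstream of one start site and the second 1.48 kb upstream of another, at 16968574, the shortest distance from any homeotic TSS to an optimal summit. The single Ubx peak (chr3R:16704284-16704713) ranked 4578, 6834 and 6959 in the replicates. Its pooled rank of 5191 was the weakest of the 20 and just inside the optimal set, and the next Ubx intron region, at pooled rank 6030, was just outside it.

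Of the genes without an optimal intron peak, pb came closest. Its strongest intron region (chr3R:6723804-6724233) ranked 5147, 6465 and 9324 in the replicates and 5540 in the pool. The strongest intron region of lab was at pooled rank 10450, of Scr at 13905 and of abd-A at 15461, and the last was listed in replicate 1 alone, at rank 11660.

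**Figure D2:**
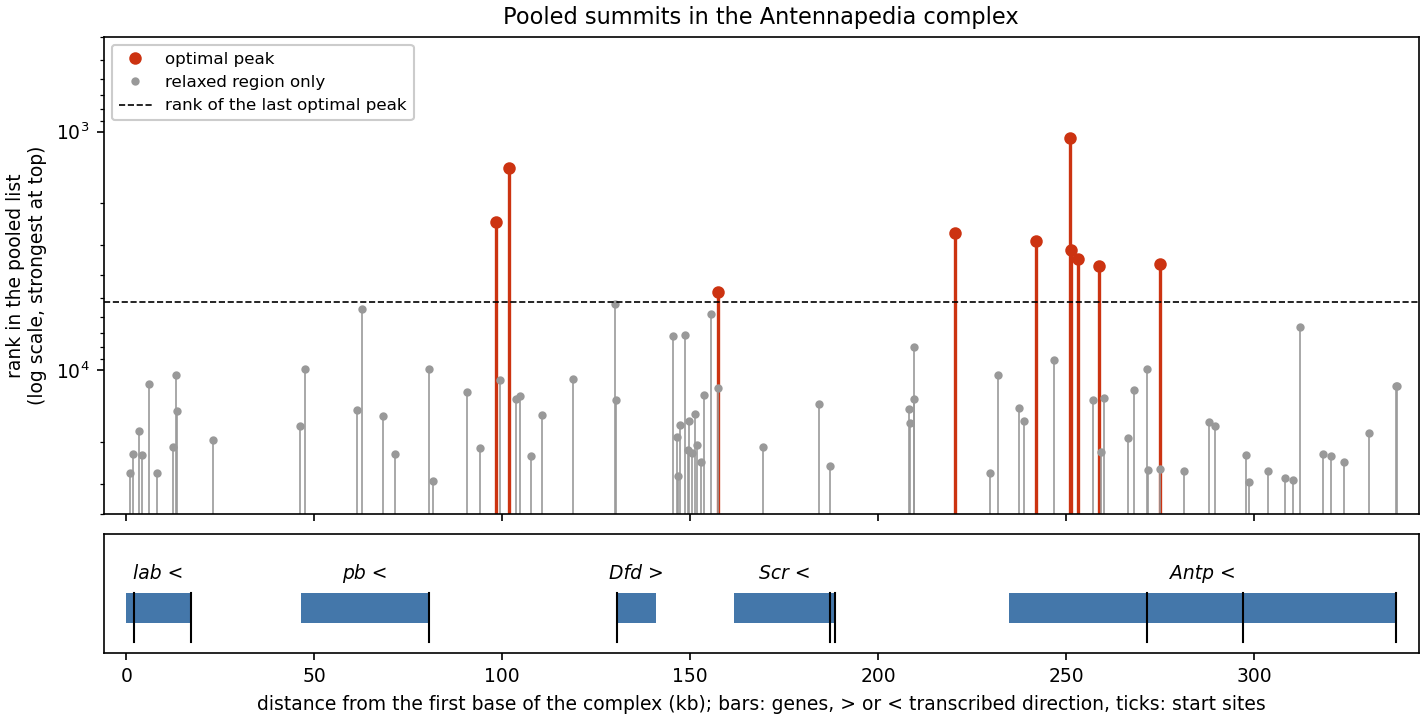
Pooled summits in the Antennapedia complex by distance from its first base (kb) and rank in the pooled list (log axis, strongest at the top), with optimal peaks in red, relaxed regions in grey, and gene bodies with start sites (ticks) underneath. The 10 optimal peaks lie between the genes or in the Antp introns, none reaches a homeotic start site, and lab, pb, Dfd and Scr hold none.

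The intervals between neighbouring genes held 11 optimal and 79 relaxed summits. In the Antennapedia complex the intervals held 0 optimal summits from lab to pb, 2 from pb to Dfd, 1 from Dfd to Scr and 1 from Scr to Antp. In the bithorax complex they held 3 from Ubx to abd-A and 4 from abd-A to Abd-B. Per 100 kb these are rates of 4.12 in both bithorax intervals and from 0 to 4.83 in the Antennapedia intervals. Of the 79 relaxed summits, 42 were listed in all 3 replicates, again with no share over all relaxed regions computed. The count of relaxed summits was 45 without replicate 1, 53 without replicate 2 and 50 without replicate 3.

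Both peaks from pb to Dfd lay at promoters of other genes. The peak 209 bp upstream of bcd, which encodes the anterior morphogen Bicoid, ranked 2807, 2573 and 2063 in replicates 1, 2 and 3 and 2403 in the pool (chr3R:6759460-6759889). The peak 320 bp upstream of a start site of Ama, which encodes the secreted immunoglobulin-family protein Amalgam, ranked 981, 2198 and 1864 and 1426 in the pool (chr3R:6762869-6763298). It also lay 394 bp downstream of a start of the non-coding gene lncRNA:CR45593. These were the only optimal peaks in the complexes at a protein-coding promoter, and both were among the 5202 strongest regions of every replicate.

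The Dfd to Scr interval held 15 relaxed summits, 72.5 per 100 kb, the densest of the 6 intervals. Several of them lay in overlapping pooled regions that shared the same replicate regions, so separate sites were fewer. The interval held 1 optimal peak. That peak (chr3R:6818475-6818904) ranked 6502, 2877 and 6339 in replicates 1, 2 and 3 and 4709 in the pool, so replicate 2 alone placed it in its 5202 strongest. The microRNA gene mir-10 in this interval, annotated at chr3R:6809506-6809582, had a relaxed summit 364 bp upstream of that entry, at pooled rank 7093. This summit lay inside lncRNA:CR42651. The Scr to Antp peak (chr3R:6881578-6882007), inside lncRNA:CR44931, was steadier, with ranks 2536, 3201 and 2817 and 2652 in the pool. The segmentation gene ftz in the same interval had no relaxed summit at its promoter.

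The strongest peak in either complex lay between Ubx and abd-A. It ranked 908, 879 and 626 in replicates 1, 2 and 3 and 723 in the pool, at chr3R:16798775-16799026, and was 252 bp wide. Its summit was 29.2 kb beyond the nearest abd-A start site, past the 3′ end of that gene, and 1.72 kb upstream of the non-coding gene lncRNA:CR45750. No TSS of any annotated gene was within 500 bp of it. The peak at chr3R:16794215-16794644, 4.45 kb away by summit, ranked 4343, 3667 and 5027 and 4430 in the pool. The third peak of this interval lay inside lncRNA:bxd, a non-coding RNA gene of the Ubx regulatory region, and ranked 4192, 4138 and 4011 and 3818 in the pool (chr3R:16748512-16748941). All 3 replicates placed each of these peaks among their 5202 strongest regions.

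The 4 peaks from abd-A to Abd-B lay inside lncRNA:iab8, a long non-coding RNA gene that spans most of the interval and whose microRNA is known to repress Hox genes. Of the 4, 3 also lay inside the overlapping protein-coding gene MSAmiP. The strongest of the 4, at chr3R:16850601-16851030 and also in an exon of lncRNA:iab4, ranked 2092, 3017 and 3265 in the replicates and 2635 in the pool. The peak at chr3R:16837775-16838204, 7.94 kb upstream of an abd-A start site, ranked 2551, 4135 and 5063 and 3563 in the pool. Both were in the 5202 strongest of every replicate. The other 2 were not: the peak at chr3R:16869185-16869614 ranked 4452, 11808 and 1719, with 3412 in the pool, and the peak at chr3R:16919044-16919473 ranked 8981, 4074 and 2696, with 4319 in the pool. The first of these had the widest spread of the 20, with its highest replicate rank 6.87 times its lowest.

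**Figure D3:**
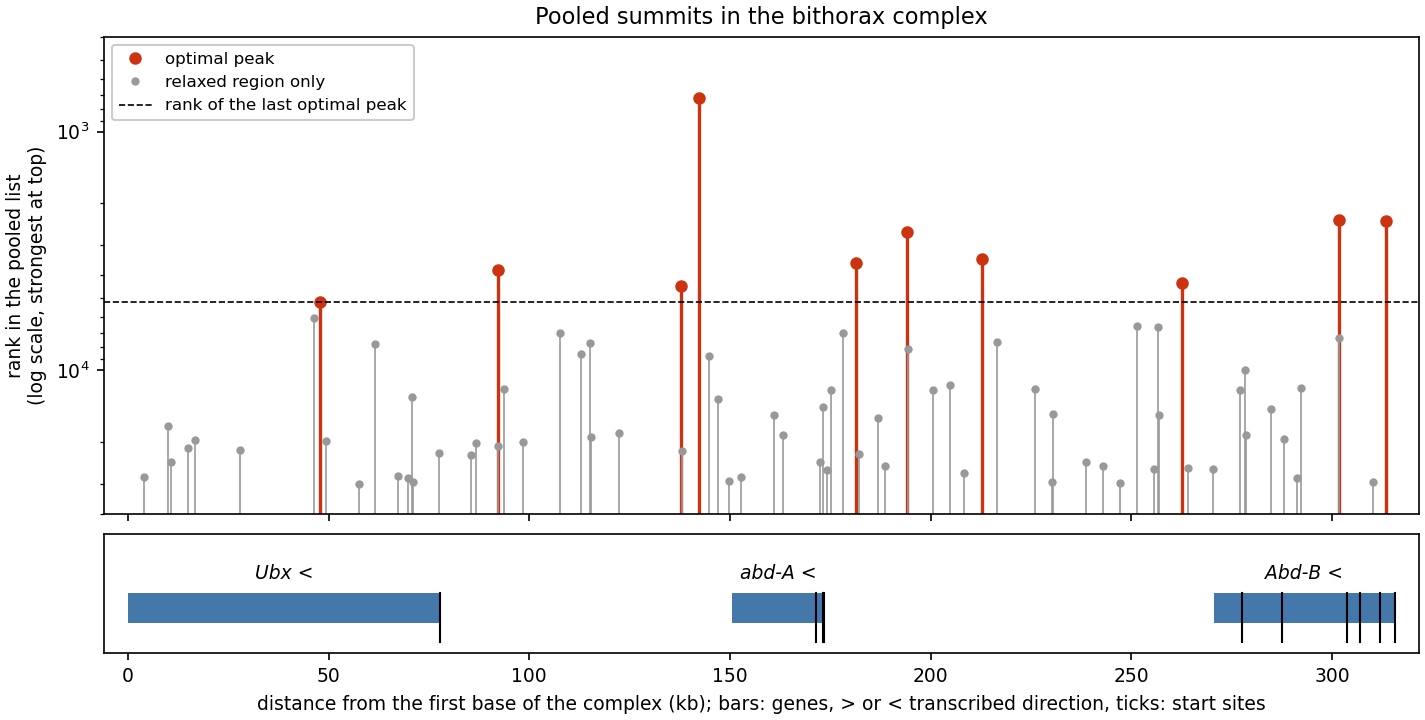
Pooled summits in the bithorax complex by distance from its first base (kb) and rank in the pooled list (log axis, strongest at the top), with optimal peaks in red, relaxed regions in grey, and gene bodies with start sites (ticks) underneath. The strongest peak, rank 723, is 1 of 3 between Ubx and abd-A, 4 peaks lie between abd-A and Abd-B, and abd-A itself holds none.

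As a set, the 20 optimal peaks of the complexes had replicate support close to that of all optimal peaks. All 3 replicates had 15 of the 20 (75.0%) among their 5202 strongest regions, against 73.2% of all optimal peaks. The 15 include the Antp peak of pooled rank 3122, whose strongest overlapping region in replicates 2 and 3 was that of its neighbour. Of the other 5, 3 were held by 2 replicates and 2 by 1 replicate. The ratio of the highest to the lowest replicate rank had a median of 1.52 in the complexes (1.05 to 6.87), against 1.72 over the 5169 optimal peaks listed in all replicates. The summits of all 3 replicates lay within 100 bp of the pooled one for 18 of the 20 peaks.

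**Figure D4:**
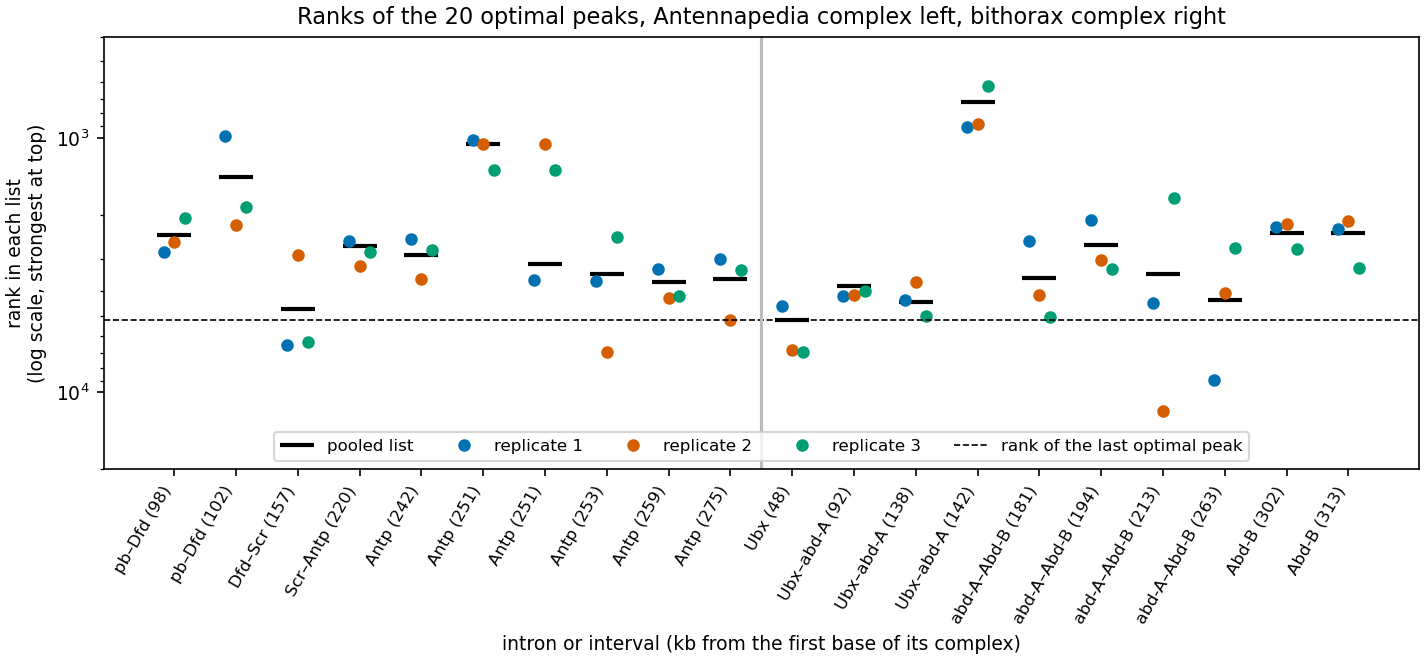
Ranks of the 20 optimal peaks of the complexes in the pooled list (black bars) and in replicates 1, 2 and 3 (points), on a log axis with the strongest at the top; the dashed line is rank 5202, where the optimal set ends. The peak between Ubx and abd-A at 142 kb is the strongest, and the peak between abd-A and Abd-B at 213 kb has the widest spread, 1719 to 11808.

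Few optimal peaks of the complexes lay at the promoter of any gene. Of the 20 optimal summits, 2 (10%) were within 500 bp of a protein-coding TSS, against 59.6% on arm 3R, which includes the complexes, and 56.4% over all 6 arms. Promoter windows cover 5.38% of the complexes, against 11.3% of 3R. In total the complexes held 3.06 optimal summits per 100 kb, against 3.95 on 3R and 3.89 over all arms. In the 5202 strongest regions of each replicate, the total rate was 3.52, 2.75 and 2.75 per 100 kb in the complexes in replicates 1, 2 and 3, against 3.99, 3.88 and 3.86 on 3R.

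Outside promoter windows the order turned round. The complexes held 2.91 optimal summits per 100 kb of such sequence (2.54 in the Antennapedia and 3.29 in the bithorax complex), against 1.80 on 3R and 1.91 over all arms. The arm rates, here and in total, are over full arm lengths, so long stretches without optimal peaks are included. Over all arms, the farthest protein-coding TSS lay 4917 kb from the nearest optimal summit. In the replicates' 5202 strongest regions, the rate was 3.24, 2.59 and 2.59 in the complexes in replicates 1, 2 and 3, against 1.72, 1.91 and 1.78 on 3R. That is 2.80 ± 0.374 in the complexes and 1.80 ± 0.0967 on 3R (SD, n = 3 each). In its 5202 strongest regions, each replicate was thus higher in the complexes outside promoters and lower in them in total. In the pooled relaxed list the complexes were higher in total too, at 24.8 per 100 kb, against 21.2 on 3R and 22.4 over all arms. Outside promoters the relaxed rates were 23.8, 16.5 and 17.8. The rate in the complexes rests on 18 peaks, and no test was made, since peaks along 2 loci are not replicates.

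**Figure D5:**
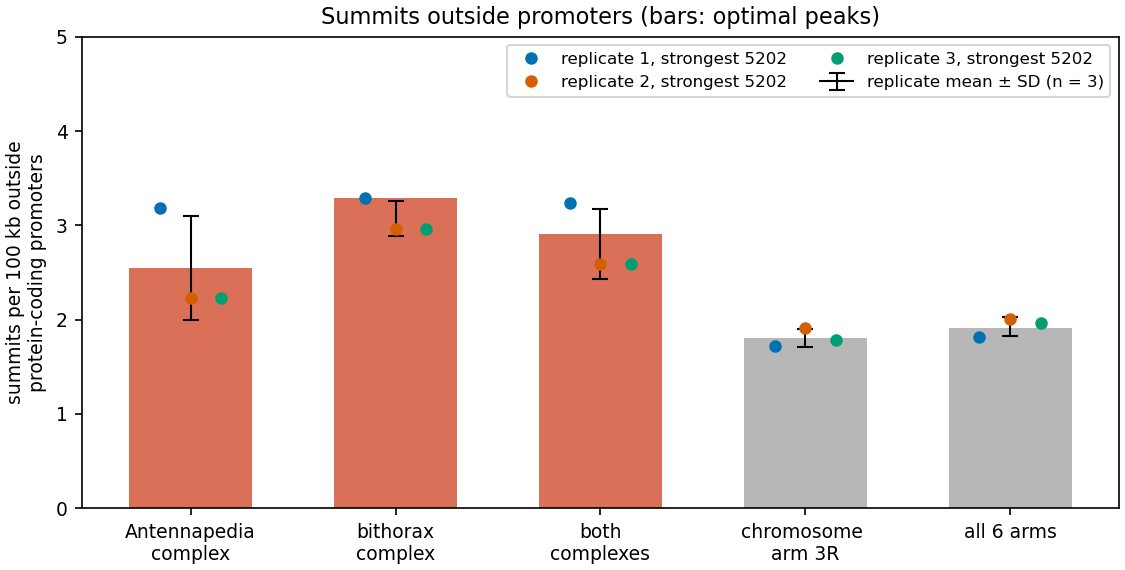
Summits per 100 kb of sequence outside protein-coding promoters, with bars for optimal peaks, points for the 5202 strongest regions of each replicate, and error bars for the mean and SD of the 3 replicates. Both complexes, at 2.54 and 3.29, stand above arm 3R at 1.80 and all arms at 1.91, and the 3 replicates of the Antennapedia complex spread most.

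Homeotic start sites were far from optimal peaks. The 19 TSSs lay a median of 14.0 kb (1.48 to 62.9 kb) from the nearest optimal summit, against 4.97 kb over 19252 protein-coding TSSs, and 14 of the 19 were farther than that median. The farthest was the distal Antp start. The optimal summits that bound or lie in the complexes left 22 gaps with a median of 20.1 kb, against 7.90 kb over 5196 gaps in the genome. The longest, 131 kb, ran from the Antp intron past the distal Antp promoter and out of the complex, and 2.89% of all gaps were as long or longer. A gap of 99.5 kb held lab and pb whole, one of 63.1 kb held Scr, one of 55.6 kb held Dfd and one of 39.1 kb held abd-A. Within 10 kb outside the complexes there were 3 optimal summits, 2 beyond lab and 1 beyond Ubx, all at promoters of other genes, and none beyond Antp or Abd-B. The strongest, 41 bp upstream of agt and 1.29 kb beyond the end of lab, ranked 85, 141 and 144 in replicates 1, 2 and 3 and 108 in the pool. The other 2 had pooled ranks of 3787 and 4068.

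Promoters of the other genes of the complexes were counted in the same way. Of 15 further protein-coding genes in the Antennapedia complex, 2 (bcd and Ama) had an optimal promoter summit and 3 a relaxed one, beside 26.2% and 54.2% of all protein-coding genes. Of the 3 in the bithorax complex, none had either. Among non-coding genes, 1 of 25 in the Antennapedia complex and 0 of 11 in the bithorax complex had an optimal promoter summit, and 5 and 2 had a relaxed one, with no share over all non-coding genes computed. Of the non-coding genes without an optimal one, mir-10 had the strongest by pooled rank, at 7093, with ranks 13132, 9230 and 6721 in replicates 1, 2 and 3. Its start is that of the annotated entry, which may not be where its transcript begins. The lncRNA:TS16 gene had a relaxed summit 2 bp from its start that ranked 8617, 10205 and 9236 in the replicates and 8751 in the pool.

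Promoter summits were also counted at genes that act with, above and below the homeotic genes. Of 6 cofactors and partners, 2 had one and all 6 had a relaxed summit: disco-r ranked 488, 1352 and 1263 in replicates 1, 2 and 3 and 793 in the pool, and disco ranked 1554, 3685 and 3714 and 2745 in the pool. Both encode zinc finger proteins that act beside Hox genes in the head. The homeodomain cofactor gene hth had no optimal promoter summit but 6 optimal summits inside the gene, as many as Antp. Of 9 segmentation genes that set Hox expression, 0 had an optimal and 5 a relaxed promoter summit. Of 12 genes listed as Hox targets, Antp among them, 1 had an optimal and 10 a relaxed one: the heart gene tin ranked 576, 1800 and 728 in the replicates and 822 in the pool. Over all protein-coding genes the optimal share was 26.2% and the relaxed share 54.2%, and the counts of these short lists were not tested against them.

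Base composition was compared at the 20 summits. GC content from 50 bp before to 50 bp after the summit was below that of equal windows 500 bp to either side in all 9 intron peaks (15.8% to 34.7% GC), against 5 of the 11 peaks between genes (19.8% to 56.4% GC). In the bithorax intervals 5 of 7 summits were richer in GC than their flanks, and the strongest peak had 56.4% GC at the summit and 28.2% in its flanks. Together 14 of the 20 summits (70.0%) were below their flanks, against 74.9% of all optimal summits. The median was 30.2% GC in the complexes and 33.7% over all optimal summits.

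Motifs of factors known at promoters, response elements and boundaries were counted in the same windows. GAGAG, the motif of GAGA factor, was in 6 of 20 windows (30.0%), among them the strongest peak and the bcd, lncRNA:iab4 and lncRNA:iab8 peaks, against 11.1% of all optimal windows, 12.1% of optimal windows outside protein-coding promoters and 12.4% of windows at regions of the relaxed list alone. Since 18 of the 20 summits were outside promoters, the share over optimal windows there is given for each motif. GCCAT, the core of the Polycomb recruiter Pho, was in 3 windows (15.0%), against 14.1% of all optimal windows and 12.6% outside promoters. CGATA, the core of the boundary protein BEAF-32, was in 1 window (5%), the Antp intron peak of rank 2880, against 19.9% of all optimal windows and 10.7% outside promoters. TATCGATA, the DREF motif, which contains CGATA, was in 0 of the 20, against 2.69% of all optimal windows and 0.308% outside promoters. GGTCACACT, the M1BP motif, was also in 0, against 1.08% and 0.176%.

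AGNTGGCG, taken here as the core motif of the insulator protein CTCF, was added to the search after the data were seen. No variant of these letters was searched. It was in 2 of the 20 windows (10%), against 2.44% of all optimal windows, 2.78% outside promoters and 1.22% of those of the relaxed list alone. The lncRNA:bxd window printed above held 2 copies, 1 on each strand, and both copies overlap the GCCAT matches there, since the letters of the 2 motifs can share bases. The lncRNA:iab8 window of rank 4319 held 1 copy and 1 GAGAG match. A single window is 5% of 20, so these shares are coarse. A match describes letters only, and none of these factors was measured.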

How the data were processed

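ChIP-seq peak lists of 3 biological replicates of 1 group were used, on dm6. Replicate numbers came from the labels, which call them biological replicates. Chromatin was sonicated to 200 to 800 bp, per the labels. In each deposited narrowPeak list the authors give a signal per region. Its scale is not stated, so it served for ranks within each list alone. The q-value column is deposited as −log10, and 5855 pooled regions share its highest value, 4.07. The relaxed lists were made by the consortium from each replicate and from the pool, and the optimal list from the regions that pass the irreproducible discovery rate, per the notes that came with the files. Which aligner and peak caller were run, and with what thresholds, is not given in the sources used here. The dm3 lists were not used. No column of per-sample values was left unmapped. The files hold no read counts, so depth is unknown and gives no precision.

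A summit is column 2 plus column 10. Gene models of Ensembl release 115 and the Release 6 sequence held by RefSeq were used, over 6 chromosome arms. A summit was placed in a promoter (500 bp either side of a member's TSS) first, then in exons, introns and the intervals between members. Counts are set beside the same count over all protein-coding genes, genes of 10 kb or longer, arm 3R or all arms, with no test, since there is 1 group. The members, gene lists, motifs and alternatives were chosen with earlier results of these data known, and the rule for named genes was all members, every optimal peak of the complexes, and the strongest relaxed ones. The 95% Wilson bound is given for a count of 0. Placement, overlap and motif search were tested on simulated data. Work was done in Python 3.11.15 with numpy 2.4.6, pandas 2.3.3, scipy 1.17.1 and matplotlib 3.10.9. The alternatives tried were windows of 200 and 1000 bp for promoters, stricter or single-replicate peak sets, interval overlap, distinct intervals, 1 TSS or the longest transcript per gene, complexes widened by 10 kb, and each replicate left out.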

Additional observations from a re-analysis of the deposited data

How the results depend on the processing

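No paired analysis was possible because the study has 1 group. Of the optimal counts, the number of homeotic genes with a promoter summit was 0 under every alternative except the strongest regions of replicate 1 alone and, added after the data were seen, the pooled regions with the highest q-value, each of which gave 1 gene, Dfd. With the strongest 50% of the optimal peaks, which holds fewer peaks by construction, the counts were 3 in introns, 3 between genes, 3 in the Antennapedia complex and 3 in the bithorax complex. Their counts were within 1.5 times the reported ones under all other alternatives. With each replicate left out, optimal counts were 0 at promoters, 7 to 8 in introns, 8 to 9 between genes, 8 to 9 in the Antennapedia complex and 7 to 8 in the bithorax complex. Relaxed counts moved more. Genes with a relaxed promoter summit numbered 5 with a 200 bp window, 5 with the strongest 50% of the list, 5 with 1 TSS per gene and 3 to 5 with each replicate left out, against 8. Relaxed intron summits numbered 28 in the strongest 50% and 29 to 33 with each replicate left out, against 66. Relaxed summits between genes numbered 40 in the strongest 50%, 33 where all 3 replicates had to cover 50% of the interval, and 45 to 53 with each replicate left out, against 79. Leaving out a replicate kept pooled regions supported by both others and did not remake the pool. Depth limits could not be given, since the lists hold no counts.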
